A study of Mus musculus with 6 samples.

Results

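The lysosome is the acidic compartment in which cells break down proteins, sugars and lipids taken up from outside or delivered from within. A proton pump in its membrane keeps it acidic, soluble hydrolases such as the cathepsins do the digestion, and membrane glycoproteins line and protect it. Microglia and the macrophages of the brain borders are professional phagocytes and are known for high levels of these genes, and lysosomal genes are among those that rise when microglia enter a disease-associated state.

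A list of 40 lysosomal genes was followed here, out of 32285 genes in the deposited matrices, picked by gene symbol with earlier results of these data known. All 40 were found and all were detected in more than 0.1% of cells. They hold 10 proteases, 1 protease inhibitor, 7 glycosidases, 2 sulfatases, 5 genes of lipid breakdown and transport, 2 cofactors, 8 membrane proteins, 4 subunits of the proton pump and 1 transcription factor. The genes lie on 17 chromosomes of the mm10 genome.

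The cells were CD45+ live cells sorted from the ventral midbrain of male Line 61 mice, aged 12 to 15 weeks when injected into the striatum, with 3 to 5 midbrains pooled per sample. All groups thus carried the human α-Syn transgene under the Thy1 promoter, which is known to drive it in neurons. The PBS group was injected with buffer, the monomer group with human α-Syn monomer, and both PFF groups with human α-Syn preformed fibrils. The PFF + VH mice then received vehicle (VH) by gavage, and the PFF + AZD1480 mice received AZD1480, an inhibitor of JAK1 and JAK2, at 25 mg/kg per day, both from week 2 for 4 weeks. Cells of all groups were collected at week 6 and sequenced as 1 10x 3' library per condition. The PFF + VH library held 4 hashtags and the PFF + AZD1480 library 5, antibody barcodes that label the cells of a sample. Hashtags were treated as replicates. The methods list as many biological replicates in each PFF group as there are hashtags, without tying one to the other, and have them handled separately, whereas the files hold a single library per condition. P-values measure only the spread between hashtags. Since each condition is its own library, the effects of library and condition cannot be told apart, hashtag tests included.

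The cells kept numbered 13021 to 34436 per library. Median UMIs per cell ran from 6616 to 7028 in the PBS, monomer and PFF + AZD1480 libraries, but came to 2306 in PFF + VH, which therefore stands apart. Of its cells 51.96% carried a single hashtag, against 81.04% with AZD1480. At least 1 UMI of Ptprc, the gene of CD45, was seen in 68.04% to 87.21% of cells, and markers of neurons summed to 3.824 to 5.301 CPM, the UMIs of a gene scaled to a total of 1000000. Between 45 and 151 cell barcodes were shared by any pair of libraries. Cells were classed by UMIs of marker genes that hold no lysosomal gene of the list. Microglia numbered 11713 to 30884 cells per library, border macrophages 166 to 282 and lymphocytes 150 to 277. Border macrophages carried 8845 to 11628 CPM of their own markers (Mrc1, Pf4, Cd163 and others), against 82.63 to 91.53 CPM in microglia. They also carried 1696 to 2074 CPM of the microglial markers (P2ry12, Tmem119 and others), against 6829 to 8426 CPM in microglia.

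Many lysosomal genes carry the palindromic site TCACGTGA, the motif bound by TFEB, the transcription factor of lysosomal genes, near their start. The motif reads the same on both strands and contains the shorter CACGTG. RefSeq promoters (GRCm38.p6, 250 bases before to 50 bases after the start) were matched for 34 of the 40 genes, and Asah1, Atp6v1b2, Ctsb, Ctsh, Npc1 and Unc93b1 were not matched. TCACGTGA stood in the promoters of 5 of the 34 genes (14.7%), of 10 of 58 other lysosomal genes (17.2%), of 2.03% of 11743 detected genes and of 1.12% of all 27025 genes with a promoter. CACGTG stood in 11 of the 34 (32.4%), in 27.6% of the other lysosomal genes, in 11.2% of detected genes and in 8.09% of all genes. The 5 genes with the full site are shown as the members that carry it. In microglia of PFF + AZD1480 against PFF + VH, Mcoln1, Atp6v1a and Atp6v0d1 were higher, while Ctsa (0.05, edgeR adjusted p = 0.658) and Ctsd (-0.10, edgeR adjusted p = 0.420) did not pass. The call of Mcoln1 was lost under another way of calling hashtags, MULTIseqDemux (0.11, edgeR adjusted p = 0.419). That of Atp6v0d1 was lost with some hashtags left out. These values were set beside the site after they were seen, and the share of all higher genes with the site was not computed. Their sites are shown in windows of 30 bases, 5′ to 3′ on the gene's strand, with the motif in capitals, and exons and introns are those of GENCODE vM21. A match is only a description of these letters, not evidence that a factor is bound there.

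Ctsd, chr7:142387908-142387937, minus strand, in an exon, motif from 99 bases before the RefSeq start: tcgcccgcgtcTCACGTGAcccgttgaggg

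Atp6v0d1, chr8:105566050-105566079, minus strand, just before the gene, motif from 4 bases before the start: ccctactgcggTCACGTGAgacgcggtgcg

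Atp6v1a, chr16:44139373-44139402, minus strand, in an intron, motif from 132 bases before the start: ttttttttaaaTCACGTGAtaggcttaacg

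Mcoln1, chr8:3500462-3500491, plus strand, in an exon, motif from 46 bases before the start: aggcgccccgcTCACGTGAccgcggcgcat

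Ctsa, chr2:164833766-164833795, plus strand, in an exon, the later of its motif copies, from 4 bases after the start: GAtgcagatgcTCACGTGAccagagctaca

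The capital GA that opens the Ctsa window is the end of an earlier copy of the same motif. The promoters of the other matched members held no full TCACGTGA.

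In microglia the 40 genes together took 7.866% (PBS), 8.320% (monomer), 8.087% (PFF + VH) and 7.477% (PFF + AZD1480) of all UMIs. Between 61.17% and 66.39% of these UMIs came from 1 gene. Cst3 (chr2:148871722-148875692, minus strand), which encodes the secreted cysteine protease inhibitor cystatin C, stood at 51958 CPM (PBS), 55241 CPM (monomer), 50354 CPM (PFF + VH) and 45736 CPM (PFF + AZD1480). In a 3' assay a transcript gives its UMIs at one end, so these values count molecules and were not divided by length. The cysteine protease Ctss (5050 to 6209 CPM) and the aspartyl protease Ctsd (4356 to 4990 CPM) followed, and then Lgmn, an asparaginyl endopeptidase (1957 to 2197 CPM). The lowest members were Mcoln1, a calcium channel of the lysosomal membrane (13.85 to 17.50 CPM), and Sgsh, a sulfamidase (14.66 to 19.86 CPM).

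The first comparison asked how the genes differ between the macrophages of the brain borders and microglia of the same hashtags. In border macrophages Ctsc was higher by 1.85 on the log2 scale, while Cst3, Ctsd, Ctss, Ctsl and Lgmn fell by 1.47 to 2.02. Of the 40 genes tested, 7 were higher and 14 lower by edgeR's quasi-likelihood test (adjusted p under 0.05 over 10976 genes, hashtag as a block), where 10.3% of all genes tested were higher and 17.4% lower. The median log2 difference was -0.14 over the members and -0.14 over all genes tested.

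Proteases took both directions. Ctsc (chr7:88278085-88310888, plus strand), the dipeptidyl peptidase that activates granule serine proteases, stood at 1789, 2536 and 3218 CPM (lowest, median and highest of 9 hashtags) in border macrophages and at 609.40, 693.60 and 865.60 CPM in microglia. No hashtag value of one class reached the other, and Ctsc was higher in 9 of 9 hashtags (log2 difference 1.85, SE 0.119, edgeR adjusted p = 1.05e-26). Ctsb, a cysteine protease, was also higher in 9 of 9 hashtags (0.45, SE 0.115), at 1868 to 2679 CPM against 1483 to 1703 CPM.

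Ctsd stood at 812, 1399 and 2232 CPM in border macrophages and at 4418, 5268 and 5988 CPM in microglia, a log2 difference of -1.87 (SE 0.128). Ctss, a protease that processes the invariant chain of MHC class II, stood at 997.7, 1897 and 2609 CPM against 4637, 5804 and 6979 CPM (-1.61, SE 0.124). Both pairs of ranges were apart, with every border macrophage value under every microglial one. Lgmn (-1.47, SE 0.124), the cysteine endopeptidase Ctsl (-1.48, SE 0.128), the carboxypeptidase Ctsz (-0.71, SE 0.123) and the aminopeptidase Ctsh (-0.40, SE 0.122) also fell by edgeR. Cst3, the inhibitor of cysteine proteases, had the strongest fall, from 40200, 50440 and 60320 CPM in microglia to 7448, 12480 and 17450 CPM in border macrophages (-2.02, SE 0.131, edgeR adjusted p = 1.58e-26).

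Among membrane proteins, Cd63, Cd68 and Laptm4a were higher and Laptm5 was lower. Cd63 (chr10:128900989-128912822, plus strand), a tetraspanin of late endosomes and lysosomes, stood at 464, 976.7 and 1291 CPM in border macrophages and at 337.8, 525.8 and 660.4 CPM in microglia, and was higher in 8 of 9 hashtags (0.87, SE 0.122, edgeR adjusted p = 1.90e-09). Cd68, a glycoprotein of macrophages, was higher by 0.45 (SE 0.120) and Laptm4a by 0.46 (SE 0.123), each in 8 of 9 hashtags. Laptm5, a transmembrane protein of haematopoietic cells, fell by 0.84 (SE 0.119), with 627.2 to 1044 CPM against 1513 to 1633 CPM. Lamp1 and Lamp2, the major glycoproteins of the lysosomal membrane, did not pass the test. Lamp1 differed by 0.13 (SE 0.120, edgeR adjusted p = 0.469) and Lamp2 by -0.08 (SE 0.120, edgeR adjusted p = 0.685).

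Of the genes of lipid handling, the acid lipase Lipa was higher (0.67, SE 0.173), while the cholesterol exporter Npc1 (-0.82, SE 0.197) and the thioesterase Ppt1 (-0.39, SE 0.147) were lower. The mean of Lipa was 178.4 against 78.09 CPM in PFF + VH hashtags. In those of PFF + AZD1480 its mean was 77.29 against 80.43 CPM and its median 94.95 against 80.62 CPM. Both cofactors were lower, the saposin precursor Psap by edgeR log2 difference -0.62 (SE 0.117) and Grn, which encodes progranulin, by -0.32 (SE 0.121). Of 7 glycosidases only the alpha-mannosidase Man2b1 passed the test (-0.71, SE 0.128), and of 2 sulfatases only Arsb (-0.998, SE 0.147). Atp6v0c, the proton pore subunit, was the only one of 4 pump subunits past the threshold (0.42, SE 0.119). Atp6v1b2 came close (0.41, SE 0.169, edgeR adjusted p = 0.0571) and was called under 9 alternatives, among them RLE scaling (0.48, edgeR adjusted p = 0.0211) and without hashtag 3 of PFF + AZD1480 (0.49, edgeR adjusted p = 0.0189). Tfeb stood at 9.678, 41.74 and 139.2 CPM against 47.06, 57.75 and 64.27 CPM, and did not pass (-0.54, SE 0.235, edgeR adjusted p = 0.0750). It was called lower under some alternatives, among them at least 2000 counts per cell (-0.71, edgeR adjusted p = 0.0340) and without hashtag 3 of PFF + AZD1480 (-0.67, edgeR adjusted p = 0.0276).

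Fewer calls were made at an even depth, over all genes as in the list. With each cell thinned to 2000 counts, edgeR no longer called Lipa (0.37, adjusted p = 0.354), Ctsb (0.37, adjusted p = 0.0511), Cd68 (0.25, adjusted p = 0.320), Laptm4a (0.27, adjusted p = 0.287) and Atp6v0c (0.26, adjusted p = 0.275), so that 2 members were higher and 15 lower, where 469 of 8410 genes were higher and 1211 lower. The call of Grn was lost with each of 5 hashtags left out in turn, down to -0.22 without hashtag 1 of PFF + AZD1480 (edgeR adjusted p = 0.222), and that of Ppt1 with each of 7 (edgeR adjusted p 0.0538 to 0.135). DESeq2 called neither Ppt1 (-0.32, adjusted p = 0.107) nor Grn (-0.23, adjusted p = 0.105). Both calls were also lost with RLE scaling (edgeR adjusted p = 0.0896 for Ppt1 and 0.122 for Grn). The same held for scaling by the total (edgeR adjusted p = 0.0680 for Ppt1 and 0.0917 for Grn). Grn was not called under further alternatives either, among them MULTIseqDemux (-0.31, edgeR adjusted p = 0.157).

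**Figure D1:**
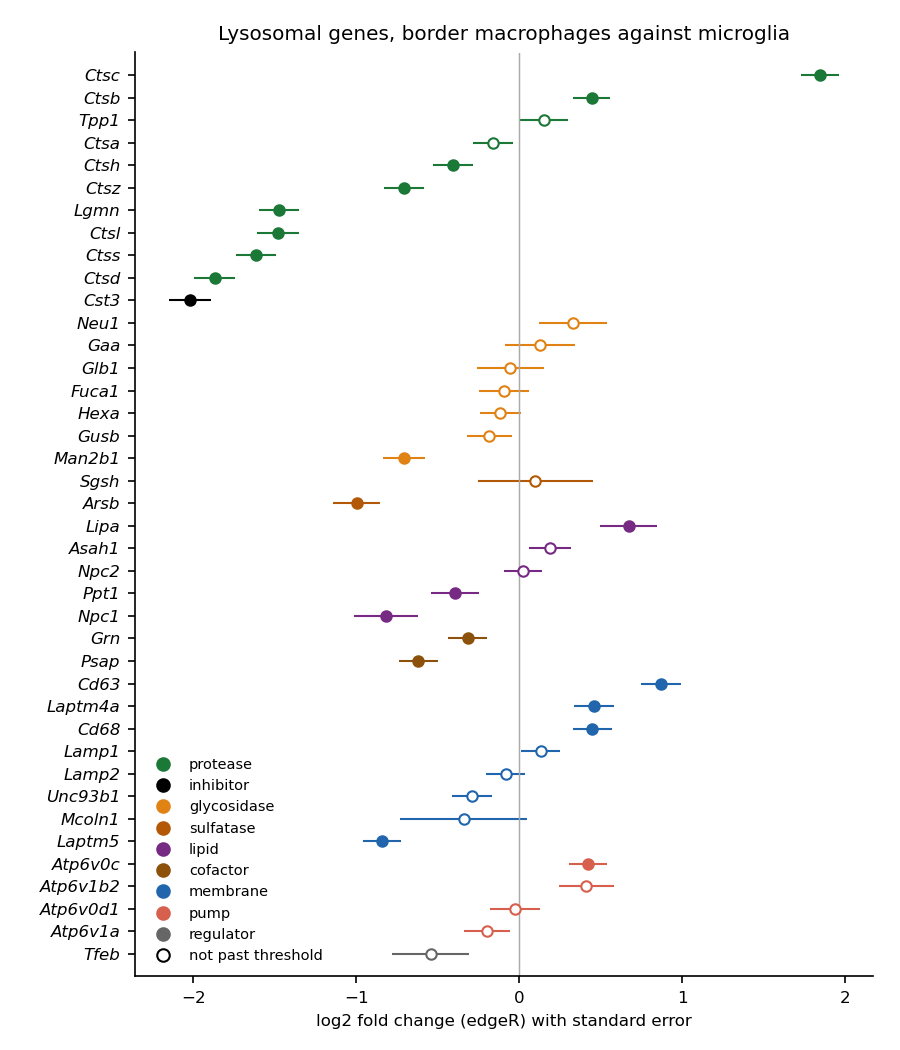
Log2 fold change of each of the 40 genes in border macrophages against microglia (x axis) by gene (y axis), coloured by role, with bars of 1 standard error from edgeR over 9 hashtags. Filled points passed the threshold, with Ctsc farthest to the right at 1.85 and Cst3 farthest to the left at -2.02.

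Ctsc and Cst3 kept this order in the libraries without hashtags, but Grn in PBS (100.3% of its microglial level) and Ctsh in monomer (103.6%) did not. Ctsc stood at 2289 CPM in border macrophages of PBS and 2452 in those of monomer, against 614.5 and 599.8 CPM in microglia. Cst3 stood at 11829 and 12208 CPM in the border macrophages of these libraries. Over the 4 libraries it was at 22.10% to 32.25% of its microglial level and Ctsd at 16.77% to 36.80%. The microglial markers in border macrophages came to 1867 against 8040 CPM (PBS), 1696 against 8426 CPM (monomer) and 2074 against 6855 CPM (PFF + VH), and the part of microglial RNA in the levels of Cst3 and Ctsd was not tested. With 1 library each these values have no replicate check. Of 76 other lysosomal genes fixed as a list, 73 were tested in this comparison, and 9 were higher and 21 lower. Hgsnat, an acetyltransferase of heparan sulfate breakdown (2.28, SE 0.195), and Galc, galactosylceramidase (1.73, SE 0.204), rose by edgeR.

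The next comparison stayed inside microglia and asked how the genes differ between cells that carried markers of the disease-associated state and all other microglia. Disease-associated microglia were those with at least 5 UMIs over at least 3 of 7 marker genes (Spp1, Lpl, Itgax, Gpnmb, Csf1, Igf1 and Axl), none of them a member of the list. They numbered 376 (PBS), 277 (monomer), 2077 (PFF + VH) and 1277 (PFF + AZD1480) cells. The gate counts UMIs, so it takes deeper cells. Their median depth per hashtag was 5019 to 6098 UMIs with VH and 8528 to 9360 UMIs with AZD1480, against 2553 to 3240 and 6251 to 7025 UMIs in other microglia. RNA that stays in the nucleus or overlaps rRNA (Malat1, Neat1, Gm42418 and Cmss1) was lower in them, at 27524 to 29304 CPM against 33379 to 34541 CPM with VH and 24141 to 26363 CPM against 29136 to 30464 CPM with AZD1480. Mitochondrial counts were higher, at 1.383% to 1.626% against 1.143% to 1.375% and at 1.098% to 1.374% against 0.9312% to 1.019%. Endothelial markers were higher as well, at 34.99 to 61.21 CPM against 14.32 to 17.40 CPM with VH and 24.15 to 46.42 CPM against 10.51 to 14.60 CPM with AZD1480. The part of these differences in the lysosomal genes was not tested beyond the alternatives given.

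Most of the list was higher in these cells. Of 40 members, 27 were higher and 6 lower by edgeR over 9 hashtags, where 22.8% of all 11453 genes tested were higher and 21.0% lower. The median log2 difference was 0.34 over the members and -0.02 over all genes tested. With each cell thinned to 2000 counts, 27 were higher and 5 lower. Scaling by the total gave 26 higher and 8 lower, while the split over all genes moved from 2615 higher and 2404 lower to 2041 and 3567.

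Cd63 had the largest difference, 1179, 1293 and 1424 CPM against 227.5, 390.5 and 487.1 CPM (1.84, SE 0.0683, edgeR adjusted p = 6.55e-18). No value of the disease-associated cells reached those of other microglia. Cd68 stood at 666.7, 713.4 and 766.6 CPM against 308.8, 395.9 and 446.3 CPM (0.90, SE 0.0487), again apart in every hashtag. Lamp1 was higher by 0.39 (SE 0.0445), whereas Lamp2 did not pass (0.09, SE 0.0426, edgeR adjusted p = 0.110). Laptm5 and Unc93b1, the chaperone of nucleic acid-sensing Toll-like receptors, fell by 0.21 (SE 0.0402) and 0.28 (SE 0.0385).

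Of the 10 proteases 8 were higher. Ctsb rose from 1223, 1356 and 1448 CPM to 2614, 2876 and 3271 CPM (1.10, SE 0.0478), and Ctsz from 1129, 1299 and 1520 CPM to 2305, 2563 and 2812 CPM (0.94, SE 0.0459). Ctsd rose from 3899, 4583 and 4993 CPM to 7008, 7544 and 10030 CPM (0.79, SE 0.0499). These ranges did not meet in any of the 3 proteases. Lgmn was the only protease that was lower, at 1348, 1569 and 1710 CPM against 1905, 2025 and 2200 CPM (-0.41, SE 0.0391, edgeR adjusted p = 1.69e-09). Ctss did not pass (0.11, SE 0.0445, edgeR adjusted p = 0.0558). It was called higher under some alternatives, among them DESeq2 (0.12, adjusted p = 0.0159) and RLE scaling (0.12, edgeR adjusted p = 0.0357). Cst3 was lower at 29980, 38270 and 40060 CPM against 40160, 49060 and 59550 CPM (-0.38, SE 0.0480). The cystatins Cst7 and Cstb, outside the list, were higher, as given below.

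All 7 glycosidases were higher by edgeR, from alpha-mannosidase Man2b1 (0.31, SE 0.0437) to the acid alpha-glucosidase Gaa (0.72, SE 0.0576). Both sulfatases were lower, Arsb from 278.7, 317.8 and 348.3 CPM to 203, 236.7 and 257.1 CPM (-0.42, SE 0.0430) and Sgsh by -0.40 (SE 0.127). Among lipid genes Npc2, the soluble cholesterol carrier (0.71, SE 0.0520), Lipa (0.61, SE 0.0525) and Ppt1 (0.19, SE 0.0427) were higher. The cofactors Grn (0.60, SE 0.0410) and Psap (0.30, SE 0.0424) were higher in 9 of 9 hashtags. Of the pump, Atp6v0c (0.82, SE 0.0471), Atp6v1b2 (0.52, SE 0.0502) and the catalytic subunit Atp6v1a (0.36, SE 0.0423) were higher and Atp6v0d1 did not pass (0.09, edgeR adjusted p = 0.150). Atp6v0d1 was called under some alternatives, among them cells thinned to 2000 counts (0.32, edgeR adjusted p = 4.08e-04). Tfeb was higher by 0.18 (SE 0.0711, edgeR adjusted p = 0.0446) in 7 of 9 hashtags, at 61.26 against 54.47 CPM in the median. This call was lost with any of 6 hashtags left out (edgeR adjusted p 0.0568 to 0.136) and with thinned cells (0.07, edgeR adjusted p = 0.700). The call of Sgsh was lost without hashtag 2 of PFF + AZD1480 (-0.27, edgeR adjusted p = 0.0612).

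**Figure D2:**
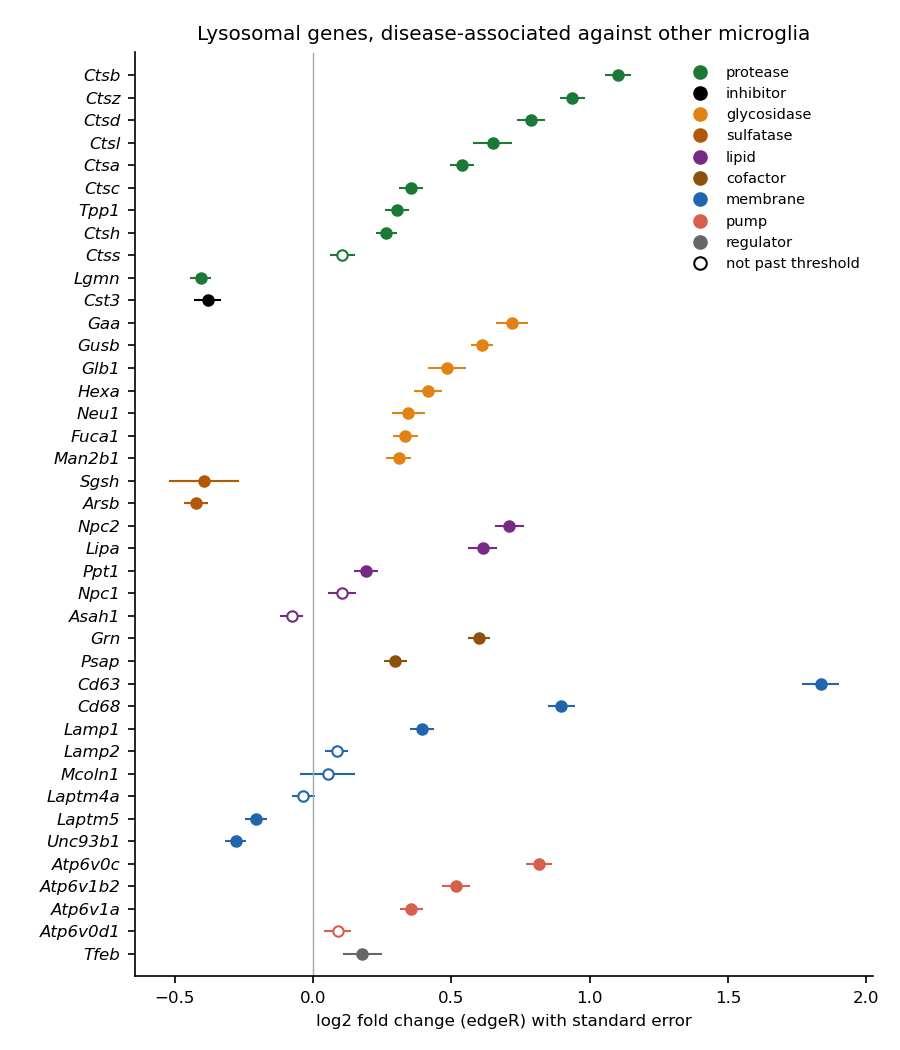
Log2 fold change of each of the 40 genes in disease-associated against other microglia (x axis) by gene (y axis), coloured by role, with bars of 1 standard error from edgeR over 9 hashtags. All 7 glycosidases lie to the right of 0 as filled points, both sulfatases to the left, and Cd63 stands apart from the rest at 1.84.

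Of the other lysosomal genes, 73 were tested in the same comparison, with 39 higher and 16 lower. Cst7, a cystatin, rose from 14.9, 20.33 and 35.45 CPM to 118.4, 147 and 346 CPM (2.90, SE 0.139, edgeR adjusted p = 1.47e-15), and Cstb, another cystatin, by 1.60 (SE 0.0471). The cation-independent mannose 6-phosphate receptor Igf2r, which carries hydrolases to the lysosome, rose from 0.5624, 1.675 and 4.473 CPM to 9.131, 14.88 and 39.6 CPM. Cd164, a sialomucin, and Sort1, sortilin, fell by 1.06 (SE 0.0535) and 0.55 (SE 0.0488).

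Across the libraries, Cd63 was the only member past 1.5-fold between microglia of PFF and of monomer, a share of the list near that of all genes. There is 1 library per condition, so that the following are values with exact Poisson 95% intervals, which cover counting error only, and no test. Of the 40 members, 38 reached a mean of 20 CPM, and Mcoln1 and Sgsh did not. No member differed by more than 1.5-fold between monomer and PBS, where 0.331% of 6342 genes did. Between PFF + VH and monomer 1 member did (2.49% of genes), and between PFF + AZD1480 and monomer 1 member did (2.63% of genes). It was Cd63 in both, and both comparisons share the monomer library.

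Cd63 stood at 247.1 CPM (243.9 to 250.2) for PBS, 262.0 CPM (258.8 to 265.3) for monomer, 514.3 CPM (509.9 to 518.7) for PFF + VH and 460.4 CPM (455.7 to 465.2) for PFF + AZD1480. The log2 difference from monomer was 0.97 with VH and 0.81 with AZD1480. Inside the disease-associated microglia its level was 1021, 1031, 1148 and 1201 CPM in the same order of libraries, and in other microglia 217.0, 239.4, 420.0 and 337.5 CPM. Fold changes against monomer were thus 1.114 and 1.166 in disease-associated cells and 1.755 and 1.410 in other microglia. The sum of the disease-associated markers was 301.4 CPM (PBS), 244.6 CPM (monomer), 757.6 CPM (PFF + VH) and 726.3 CPM (PFF + AZD1480) in microglia. In the same order it was 157.0, 177.2, 401.9 and 326.4 CPM in other microglia, which thus also differed in these markers. In disease-associated microglia it was 4021, 2530, 3150 and 3137 CPM. The part of these markers in the difference of Cd63 was not tested in any of these sets.

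Members next in size with VH stayed under 1.5-fold. Atp6v0c stood at 405.9 CPM (PBS), 382.1 CPM (monomer), 566.9 CPM (PFF + VH) and 483.7 CPM (PFF + AZD1480), and passed 1.5-fold with VH when libraries were scaled by TMM. Cd68 rose over the libraries from 306.2 and 340.1 CPM to 451.0 and 422.0 CPM, and Npc2 from 574.4 and 611.1 CPM to 806.5 and 679.6 CPM. With AZD1480 the members next to Cd63 were Ctsb (1.300-fold), Atp6v0c (1.266-fold) and Gusb (1.263-fold). Over the 38 members, log2 differences from monomer ran from -0.23 to 0.97 with VH and from -0.27 to 0.81 with AZD1480, with medians of 0.05 and 0.09, against medians of -0.10 and -0.03 over all genes. Of the other lysosomal genes, Cst7, Cstb and the protease Ctse were past 1.5-fold in both PFF libraries. Against monomer Cst7 was 5.209-fold, Ctse 1.860-fold and Cstb 1.708-fold with VH, and Cst7 was lower in monomer than in PBS (0.4602-fold).

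**Figure D3:**
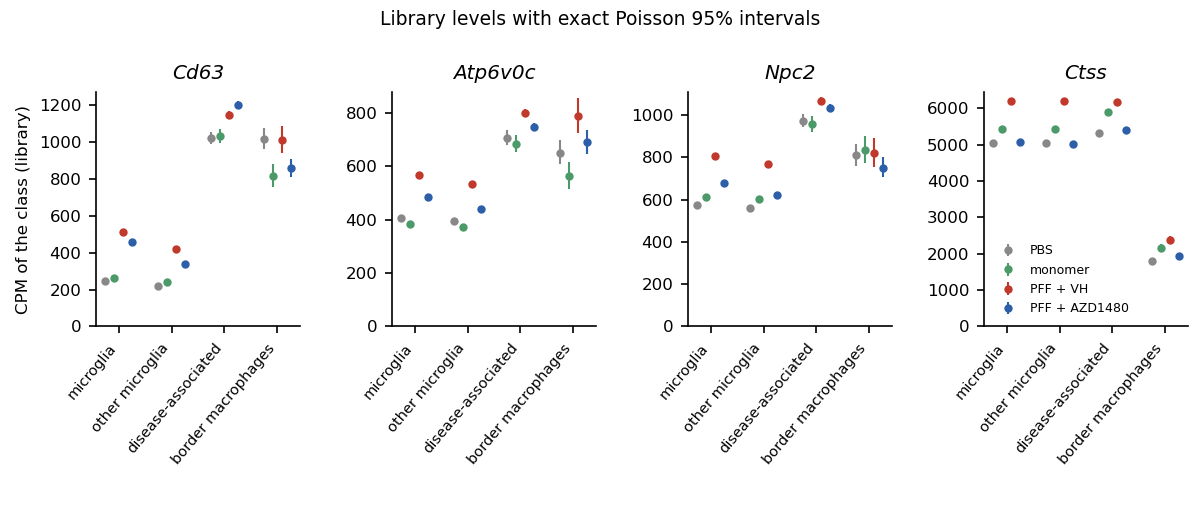
CPM (y axis) of Cd63, Atp6v0c, Npc2 and Ctss in microglia, other microglia, disease-associated microglia and border macrophages (x axis) of the 4 libraries, with exact Poisson 95% intervals and 1 library per point. Cd63 in microglia lies near 250 CPM in PBS and monomer and at 514.3 and 460.4 CPM in the PFF libraries, and above 1000 CPM in all disease-associated microglia.

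The study gave AZD1480 to ask what inhibition of JAK changes in the PFF mice. In microglia 4 hashtags of PFF + VH were compared with 5 of PFF + AZD1480. With AZD1480, 3 of 10 proteases (Ctsl, Ctss and Ctsz), the cholesterol carrier Npc2 and the pump subunit Atp6v0c were among the lower members, and Mcoln1, Tfeb and the pump subunits Atp6v1a and Atp6v0d1 were higher, all by less than 0.4 on the log2 scale. Of the 40 members, 4 were higher and 10 lower by edgeR, where 12% of all 13618 genes tested were higher and 14.2% lower. At an unadjusted p under 0.05 there were 18 members and 5247 of all genes tested. The share of members that were higher was near that of all genes. The median log2 difference was -0.03 over the members and -0.00 over all genes tested. DESeq2 called 16 members and 3415 genes in all, against 3574 genes by edgeR. Without hashtag 3 of PFF + VH edgeR called 9 members, and the count over all genes without it is not given here.

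Ctsl (chr13:64359337-64370890, minus strand) stood at 1323, 1450, 1256 and 1319 CPM in the PFF + VH hashtags and at 1043, 1060, 1133, 1036 and 983 CPM in those of PFF + AZD1480. Ctss (chr3:95526786-95556403, plus strand) stood at 6383, 6699, 6528 and 6449 CPM in PFF + VH and at 5073, 5225, 5626, 4499 and 4823 CPM in PFF + AZD1480. All PFF + AZD1480 values of both proteases lay under all PFF + VH values. The edgeR differences were -0.35 (SE 0.0565, adjusted p = 0.00105) for Ctsl and -0.37 (SE 0.0670, adjusted p = 0.00208) for Ctss. Ctsz, at 1672 ± 40.9 CPM (SD, n = 4) with VH and 1390 ± 109 CPM (SD, n = 5) with AZD1480, was the third of 10 proteases that fell (edgeR log2 difference -0.27, SE 0.0604, adjusted p = 0.00712). Ctsd and Ctsb did not pass. Ctsd stood at 5196 ± 169 CPM with VH against 4861 ± 585 CPM with AZD1480 (edgeR adjusted p = 0.420), and Ctsb at 1576 ± 41.8 and 1578 ± 85.8 CPM (edgeR adjusted p = 0.979).

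Npc2 (chr12:84754562-84773152, minus strand) stood at 825.5, 896.3, 845.5 and 829.3 CPM in PFF + VH and at 688.0, 717.1, 718.7, 612.3 and 593.5 CPM in PFF + AZD1480, with no overlap (edgeR log2 difference -0.35, SE 0.0649, adjusted p = 0.00227). Grn, at 841.4 ± 9.79 and 715.3 ± 79.8 CPM, fell by 0.23 (SE 0.0722, edgeR adjusted p = 0.0315), a call lost with each of 7 hashtags left out in turn (edgeR adjusted p 0.0576 to 0.0722). Fuca1, alpha-fucosidase, was the only one of 7 glycosidases that passed (-0.22, SE 0.0540, edgeR adjusted p = 0.0102). Psap did not (-0.11, SE 0.0576, edgeR adjusted p = 0.190).

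Among membrane proteins, Mcoln1 (chr8:3500457-3515232, plus strand), whose promoter holds a site shown above, stood at 12.79, 14.13, 14.16 and 13.76 CPM in PFF + VH and at 16.51, 17.85, 16.60, 17.39 and 18.81 CPM in PFF + AZD1480. The groups did not overlap (edgeR log2 difference 0.34, SE 0.0690, adjusted p = 0.00364). With hashtags called by MULTIseqDemux the difference was 0.11 (edgeR adjusted p = 0.419). Cd68 fell by 0.21 (SE 0.0680, edgeR adjusted p = 0.0383), and this call was lost without any of 5 hashtags (edgeR adjusted p 0.0537 to 0.106). Laptm4a (-0.16) and Unc93b1 (-0.12) also fell, and these calls were lost with each of 3 hashtags left out in turn for Laptm4a (edgeR adjusted p 0.0532 to 0.0569) and with each of all 9 for Unc93b1 (edgeR adjusted p 0.0559 to 0.110). Cd63, at 514.5, 541.7, 636.0 and 516.6 CPM in PFF + VH and at 510.1, 472.5, 495.4, 424.6 and 327.0 CPM in PFF + AZD1480, did not pass (-0.31, SE 0.113, edgeR adjusted p = 0.0648). It was called by DESeq2 (adjusted p = 0.0393) and, by edgeR, without a filter (adjusted p = 0.0385), with MULTIseqDemux (adjusted p = 0.0333), without hashtag 1 of PFF + AZD1480 (-0.36, adjusted p = 0.0448) and with the hashtag number as a block (-0.21, adjusted p = 0.0419). Its lowest value, in hashtag 5 of PFF + AZD1480, went with the lowest sum of disease-associated markers, 506.9 CPM against 688.1 to 860.4 CPM in the other hashtags. The same hashtag also held the lowest values of Ctsl, Ctsz, Npc2, Grn, Cd68 and Atp6v0c, though not of Ctss. The part of the markers in these values was not tested. Lamp1 (-0.13, edgeR adjusted p = 0.0833) and Lamp2 (-0.04, edgeR adjusted p = 0.559) did not pass either. Lamp1 was called with MULTIseqDemux (-0.17, edgeR adjusted p = 0.0333).

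Pump subunits took both directions. Atp6v1a (chr16:44085402-44139705, minus strand), the catalytic subunit, stood at 177.2, 199.0, 196.1 and 197.2 CPM in PFF + VH and at 250.8, 233.2, 217.0, 216.9 and 224.4 CPM in PFF + AZD1480 (edgeR log2 difference 0.25, SE 0.0553, adjusted p = 0.00637). Atp6v0d1 was higher by 0.18 (SE 0.0518, edgeR adjusted p = 0.0264), with groups that overlapped and a call lost without any of 5 hashtags (edgeR adjusted p 0.05001 to 0.0777). Atp6v0c, at 523.6, 590.0, 643.1 and 611.0 CPM in PFF + VH and at 517.7, 522.6, 482.4, 443.9 and 389.7 CPM in PFF + AZD1480, was lower (-0.33, SE 0.0863, edgeR adjusted p = 0.0150).

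Tfeb (chr17:47737030-47792419, plus strand) stood at 54.40, 50.09, 45.33 and 46.36 CPM in PFF + VH and at 58.23, 62.25, 61.18, 56.03 and 62.00 CPM in PFF + AZD1480. The groups were apart (edgeR log2 difference 0.29, SE 0.0599, adjusted p = 0.00437). With cells thinned to 2000 counts, Tfeb (0.23, edgeR adjusted p = 0.0934) and Fuca1 (-0.21, edgeR adjusted p = 0.0558) missed the threshold, and 2 members were higher and 8 lower. Cst3 fell short of the threshold with overlapping groups, at 52088 ± 4133 CPM and 45190 ± 4016 CPM (-0.21, SE 0.0890, edgeR adjusted p = 0.110), but was called by DESeq2 (-0.20, adjusted p = 0.0386) and with MULTIseqDemux (-0.23, edgeR adjusted p = 0.0479). When each hashtag was scaled by its total instead of TMM, 5 members were higher and 6 lower, and the split over all genes moved from 1634 higher and 1940 lower to 2333 and 1466.

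Beside these differences, the nuclear and rRNA-overlapping RNA made up 32556 to 33859 CPM in the microglia of PFF + VH hashtags and 28445 to 29954 CPM in those of PFF + AZD1480. The held-out microglial and macrophage genes (C1qa, C1qb, C1qc, Trem2 and Csf1r) summed to 20963 to 22330 CPM and 17786 to 21249 CPM. Mitochondrial counts were 1.171% to 1.390% and 0.9518% to 1.074%, neutrophil markers 322.3 to 355.5 CPM and 374.8 to 430.7 CPM, and monocyte markers 11.85 to 17.08 CPM and 7.090 to 10.58 CPM. The part of these differences in the lysosomal genes was not tested beyond leaving the nuclear genes out, with which 4 members were higher and 9 lower. The counts over all genes in that setting are not given here.

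**Figure D4:**
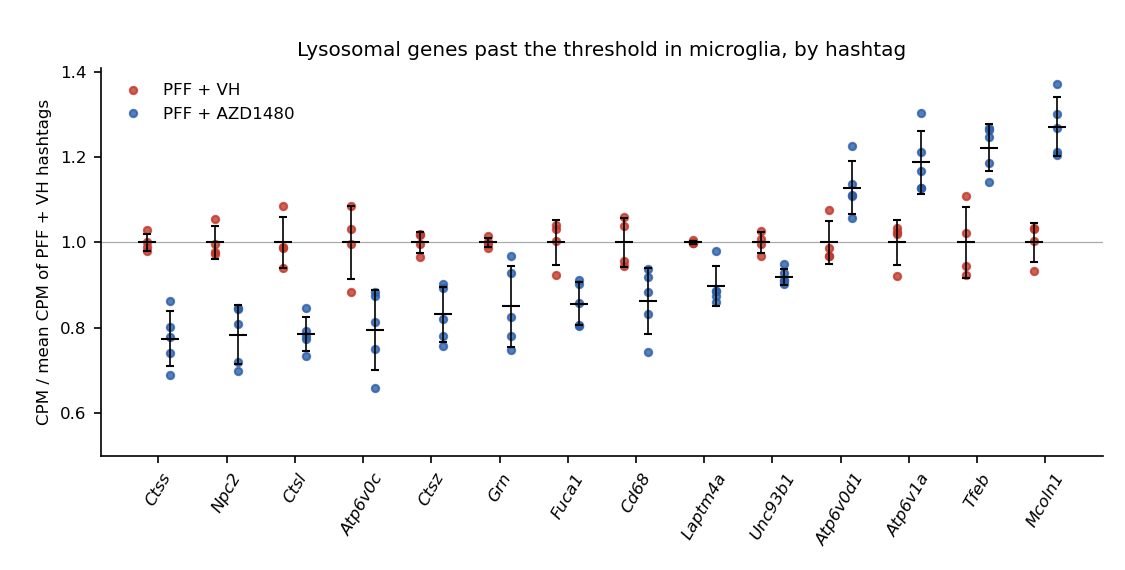
CPM of each hashtag divided by the mean of the PFF + VH hashtags (y axis) for the 14 genes past the threshold in microglia (x axis), with 1 point per hashtag and bars of mean and SD (n = 4 for PFF + VH, n = 5 for PFF + AZD1480). Atp6v0d1 is the only one of the 14 whose groups overlap. The 14 were picked by the test of these same groups, so their separation is not further evidence. The share of all genes without overlap is not given here.

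Of the other lysosomal genes, 74 were tested in microglia, with 9 higher and 16 lower. Mitf, a transcription factor related to Tfeb, stood at 249.3, 232.9, 226.6 and 240.9 CPM in PFF + VH and at 291.8, 324.2, 340.3, 323.8 and 318.7 CPM in PFF + AZD1480, with no overlap (0.43, SE 0.0514, edgeR adjusted p = 1.62e-04). Gm2a, the GM2 ganglioside activator, fell from 166.8 ± 4.86 to 118.9 ± 12.6 CPM (-0.49, SE 0.0677, edgeR adjusted p = 4.20e-04). Idua, alpha-iduronidase (0.55), and the amino acid transporter Slc36a1 (0.36) rose, and Naaa, an acid amidase, fell (-0.37). Igf2r had the largest fall (-1.05, SE 0.290) at low levels of 5.686 and 2.639 CPM.

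In border macrophages no member passed the test. The sums were small, with 34 to 70 cells per hashtag with VH and 10 to 57 with AZD1480, and only 34 of the 40 members passed the filter on low counts (Gaa, Glb1, Mcoln1, Npc1, Sgsh and Tfeb did not). By edgeR 0 members had an adjusted p under 0.05, where 0.435% of 2989 genes did. At an unadjusted p under 0.05 there were 8 members and 331 of all genes tested. DESeq2 called 0 members and 18 genes in all. The median log2 difference was -0.19 over the 34 and 0.00 over all genes, and 28 of the 34 were negative. The nuclear and rRNA-overlapping RNA also differed, at 40477 to 46009 CPM in the border macrophages of PFF + VH hashtags and 31883 to 36312 CPM in those of PFF + AZD1480, and its part in the members' levels was not tested beyond leaving these genes out. Astrocyte markers, at low levels, stood at 24.6 to 86.57 CPM with VH and 0 to 15.46 CPM with AZD1480, and their part was not tested. Lipa stood at 211.7, 152.0, 347.3 and 173.0 CPM in PFF + VH and at 112.8, 58.74, 0.00, 143.8 and 145.4 CPM in PFF + AZD1480 (-1.01, SE 0.351, edgeR adjusted p = 0.272). Cst3 stood at 17545 ± 2452 and 13246 ± 1572 CPM (-0.40, SE 0.156, edgeR adjusted p = 0.316), Lamp1 at 1174 ± 222 and 823.4 ± 59.3 CPM (edgeR adjusted p = 0.271) and Unc93b1 at 853.2 ± 133 and 607.0 ± 19.9 CPM (edgeR adjusted p = 0.271). The values of these 4 genes, the 4 of smallest p by edgeR, did not overlap between the groups. The share of all genes without overlap is not given here. Of the 8 members, 2 had higher values with AZD1480, Ctsc (0.41, SE 0.163, edgeR adjusted p = 0.343) and Arsb (0.67, SE 0.285, edgeR adjusted p = 0.390), both with overlapping groups, and the last 2 were Ctsl (-0.51, SE 0.212) and Ctss (-0.42, SE 0.175). Of the other lysosomal genes, 39 were tested and none passed.

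Whether the difference between conditions was itself different in border macrophages and microglia was tested as an interaction. No member passed (lowest edgeR adjusted p = 0.103), where 0.488% of 11879 genes did. At an unadjusted p under 0.05 there were 2 members and 860 of all genes tested. DESeq2 called 0 members and 25 genes in all. The median standard error of a member was 0.233, and missing the threshold does not show that members moved alike in both classes. Lipa came nearest (-1.03, SE 0.307), and was called with at least 6 marker UMIs per cell (-1.21, edgeR adjusted p = 0.0309).

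Lymphocytes were set against microglia of the same hashtags to see which members are shared by cells that are not phagocytes. Of the 40 genes, 38 were lower and 0 higher by edgeR, where 30.1% of 11041 genes were lower and 16.7% higher. DESeq2 called 37 members and 4663 genes in all. By edgeR only the pump subunit Atp6v1b2 (-0.45, SE 0.208, adjusted p = 0.0697) and Sgsh (-0.26, SE 0.394, adjusted p = 0.624) missed the threshold. Atp6v1b2 was called lower under some alternatives, among them RLE scaling (-0.48, edgeR adjusted p = 0.0439) and HTODemux centred within cells (-0.54, edgeR adjusted p = 0.0172). The median log2 difference was -2.25 over the members and -0.24 over all genes. Scaling by the total moved the latter to -0.00 and the split of all calls from 1842 higher and 3321 lower to 2550 and 2582, with 37 members lower and 0 higher.

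Lgmn stood at 69.76, 190.3 and 330.9 CPM in lymphocytes and at 2052, 2240 and 2453 CPM in microglia (-3.47, SE 0.174, edgeR adjusted p = 2.19e-32). Cst3 stood at 1698, 6347 and 11240 CPM against 43490, 54490 and 65110 CPM (-3.21, SE 0.179), and Ctss at 232.5, 607 and 1237 CPM against 5014, 6291 and 7516 CPM (-3.17, SE 0.165). Every lymphocyte value of these 3 lay under every microglial one. Smaller differences were seen in Laptm5 (-1.63, SE 0.148), Laptm4a (-1.33, SE 0.166), the alpha-fucosidase Fuca1 (-1.10, SE 0.200), Arsb (-0.99, SE 0.173) and Atp6v0d1 (-0.88, SE 0.196), which still passed. Of the other lysosomal genes 74 were tested, with 50 lower and 6 higher. Igf2r rose from a median of 4.116 to 46.51 CPM (3.48, SE 0.339, edgeR). Acp5, an acid phosphatase, stood at a median of 0.7248 CPM in microglia and 55.43 CPM in lymphocytes, and since it was too low to be tested in microglia alone, it is given as values.

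Genes of microglia gave UMIs in lymphocyte droplets, so these levels were read against genes that lymphocytes should lack. The 5 held-out genes, pooled, stood in T and NK cells at 4.674% (PBS), 5.218% (monomer), 21.85% (PFF + VH) and 16.46% (PFF + AZD1480) of their microglial level. The median depth of these cells was 5256, 5921, 2397 and 6150 UMIs in the same order. Values of a member at or under the highest of the 5 held-out genes were read as background.

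Ctsh and Lgmn lay at or under the background of T and NK cells in all 4 libraries, Cst3 in 3, and Ctss, Ctsl and Cd68 in 2. Ctss stood at 6.201%, 6.271%, 22.32% and 17.35% of its microglial level for PBS, monomer, PFF + VH and PFF + AZD1480. Cst3 stood at 4.861%, 5.496%, 22.26% and 18.85% of its microglial level in the same order, while the highest held-out gene stood at 5.431%, 5.985%, 23.06% and 18.46%. Arsb stood far above it, at 73.86%, 73.53%, 83.09% and 54.81% (254.0, 241.8, 239.1 and 180.3 CPM), and so did Laptm5 at 31.31% to 48.19% and Npc2 at 36.36% to 50.47%. The pump subunits Atp6v1b2 (63.57% to 84.17%), Atp6v0d1 (51.28% to 79.08%) and Atp6v0c (38.87% to 46.94%) were above it in all 4 libraries. Glb1 (47.91% to 89.71%) shares its strand with the overlapping gene Tmppe, so that its reads are uncertain.

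B cells differed from T and NK cells in a few members, over 26 to 44 cells per library. Ctsh, near background in T and NK cells, stood at 47.75% (PBS), 48.20% (monomer), 36.75% (PFF + VH) and 42.34% (PFF + AZD1480) of its microglial level in B cells. Unc93b1 stood at 39.11% to 49.83% in B cells and at 6.072% to 23.60% in T and NK cells. Fuca1 (89.27% to 136.5%) and Tfeb (79.86% to 140.3%) were close to or above the microglial level in B cells, but on few counts. Fuca1 rested there on 16 to 31 UMIs per library and Tfeb on 6 to 12. Arsb went the other way, at 20.69 to 35.49 CPM in B cells (3 to 6 UMIs per library) against 180.3 to 254.0 CPM in T and NK cells. In B cells the highest held-out gene stood at 4.563%, 8.466%, 19.33% and 13.50%, and Arsb, at 7.191% to 10.79%, was under it in both PFF libraries. These are values of 1 library each and were not tested.

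**Figure D5:**
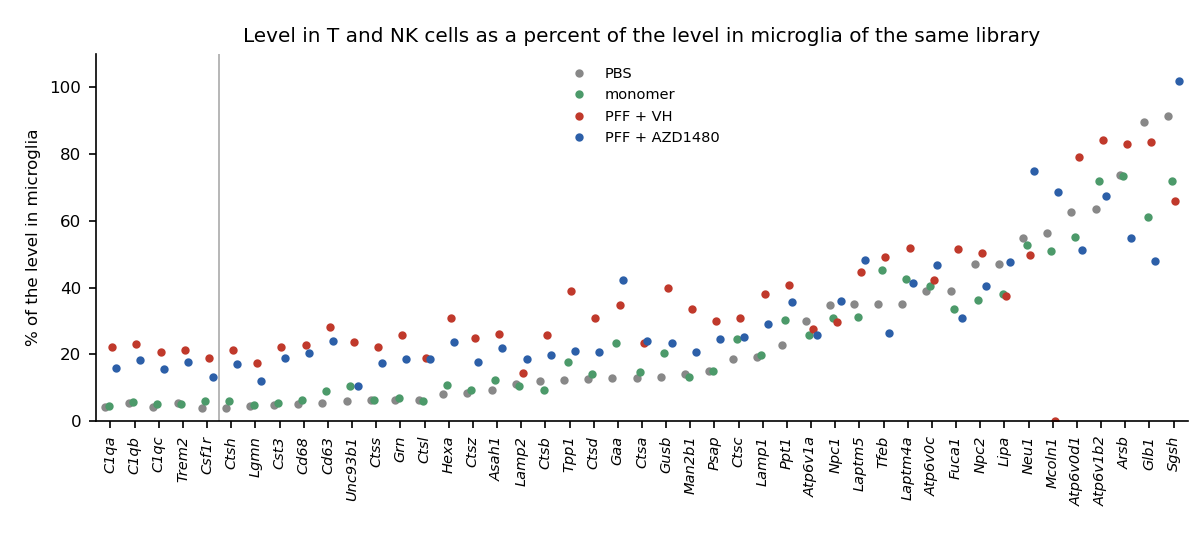
Level in T and NK cells as a percent of the level in microglia of the same library (y axis) for the 5 held-out microglial genes, left of the line, and the 40 lysosomal genes (x axis), with 1 point per library. The held-out genes lie between 3.965% and 23.06%, and members such as Arsb, Atp6v1b2 and Sgsh lie above 50% in all 4 libraries.

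Between the PFF groups, no member of the list passed the test in lymphocytes, and all the nearest ones were lower with AZD1480. Only 24 of the 40 passed the filter on low counts, and 16 did not, among them Tfeb, Mcoln1, Cd68 and Lipa. Of the 24, 0 were called by edgeR, where 0.579% of 2073 genes were. An unadjusted p under 0.05 was reached by 5 members and 260 of all genes tested. DESeq2 called 2 members and 31 genes in all. Ctsd stood at 2087, 1435, 1709 and 1343 CPM in PFF + VH and at 797.2, 727.9, 564.2, 965.3 and 1145 CPM in PFF + AZD1480 (-0.93, SE 0.204, edgeR adjusted p = 0.0515). Ctss stood at 1450, 1247, 1580 and 1230 CPM and at 784.9, 740.5, 470.2, 751.5 and 988.2 CPM (-0.85, SE 0.189, edgeR adjusted p = 0.0515). The groups were apart in both. In lymphocytes of the whole PFF + AZD1480 library, Ctss (17.44% of its microglial level) was also under the highest held-out gene (17.55%). This was not computed over the hashtagged cells alone. The microglial markers in lymphocytes summed to 816.6 to 1177 CPM in PFF + VH hashtags and 339.6 to 599.8 CPM in those of PFF + AZD1480, with no overlap, and the held-out genes to 2411 to 4490 CPM and 1321 to 2793 CPM. The part of microglial RNA in the values of Ctsd and Ctss was not tested. Without hashtag 3 of PFF + AZD1480 both genes were called (edgeR adjusted p = 0.0294), and without hashtag 5 both were called together with Cst3 (-1.08, edgeR adjusted p = 0.0316). Over all alternatives the adjusted p ran from 0.00246 (DESeq2) to 0.159 (edgeR) for Ctsd and from 0.00221 (DESeq2) to 0.256 (edgeR) for Ctss, and both were lower with AZD1480 in each. The median log2 difference was -0.39 over the 24 members and -0.00 over all genes.

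In T and NK cells alone, with 4 hashtags against 4 since hashtag 3 of PFF + AZD1480 had fewer than 5 such cells, 21 members were tested and 2 were lower, where 2.34% of 2009 genes were lower. These were Ctsd (-0.89, SE 0.176, edgeR adjusted p = 0.00923) and Ctss (-0.72, SE 0.190, edgeR adjusted p = 0.0413), and without any of 6 hashtags Ctss was not called (edgeR adjusted p 0.0694 to 0.160). Ctss was under the highest held-out gene in T and NK cells of both PFF libraries and so reads as background there, while Ctsd (30.81% and 20.70% of its microglial level) was above it. These percents are of whole libraries, with cells of no single hashtag included, and were not computed over the cells tested. Over all T and NK cells of a library the held-out genes summed to 4656 CPM (PFF + VH) and 3121 CPM (PFF + AZD1480). With cells thinned to 2000 counts Ctss differed by -0.30 (edgeR adjusted p = 0.536). Of 14 other lysosomal genes tested, 2 were lower, among them Cst7, which fell from 218.2 ± 41.9 to 97.74 ± 33.8 CPM (-1.15, SE 0.310, edgeR adjusted p = 0.0474). The held-out microglial genes moved the same way, at 2269 to 4700 CPM in the T and NK cells of PFF + VH hashtags and 1403 to 2887 CPM in those of PFF + AZD1480. The microglial markers, at 812.1 to 1262 CPM and 475.9 to 609.3 CPM, did not overlap. The part of that difference in Ctsd, Ctss and Cst7 was not tested.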

How the data were processed

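Gene expression was measured in 4 single-cell mRNA libraries, 1 per condition, with 2 hashtag libraries for the PFF conditions. The authors made the deposited UMI counts per gene and cell with Cell Ranger from 10x 3' reads on mm10, and the file headers name release 7.0.1, while the methods of the study name another release. Whether intronic reads were counted is not given in the sources used here. A cell was kept if it held 500 to 15000 counts from 250 to 5000 genes, with no more than 10% of them mitochondrial. Hashtags were called with HTODemux (Seurat 5.3.0, quantile 0.99). A class needed at least 3 UMIs of its markers and at least 2 times those of any other list. Counts were summed per hashtag and class (at least 5 cells) and tested with edgeR 4.0.16 (TMM, filterByExpr, Benjamini-Hochberg over all genes tested, threshold 0.05) in R 4.3.3. The test gives no standard error, so SE is the log2 difference, without its sign, divided by the square root of the F statistic. It need not match the p-value. Hashtag values of genes are TMM-scaled CPM over the UMIs of the genes that passed the filter of each test. They are higher where few genes passed (2989 in border macrophages, 2073 in lymphocytes) and are not comparable between tests. Library values and sums of markers are plain CPM over all genes. Between libraries a gene was called past 1.5-fold at a mean of at least 20 CPM. The study itself compared single cells with the Hurdle model, which takes cells as replicates and was not used.

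Named genes were, in each test, up to 12 members past the threshold by adjusted p with up to 6 in each direction (the 4 of smallest p where fewer than 4 passed), 11 genes named for their role, and the 3 other lysosomal genes with the largest change in each direction. Further members are named to account for the list, and not every gene that the rule names is reported here. The members, lists and tests were chosen with earlier results of these data known. No doublets were removed, but cells with more than 1 hashtag entered no test. The edgeR fits, apart from that of T and NK cells, were tested on simulated data. Alternatives were RLE scaling, scaling by the total, DESeq2 1.42.0, no filter, MULTIseqDemux, HTODemux centred within cells, at least 2000 counts, thinning to 2000 counts, at least 6 marker UMIs, nuclear genes left out, high Scrublet scores left out (scanpy 1.11.5), a replicate block and each hashtag left out.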

Additional observations from a re-analysis of the deposited data

Results flagged for a closer look

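In 5 of 86 groups of hashtag values (5.81%), the highest or lowest hashtag stood apart from the rest of its group by Dixon's criterion, which chance meets in about 1 of 20 groups. Atp6v1a in microglia was lowest in hashtag 1 of PFF + VH at 177.2 CPM, against 196.1 to 199 CPM in the other 3. Atp6v0d1 in microglia was highest in hashtag 2 of PFF + VH at 126.8 CPM, against 114.3 to 116.4 CPM. Ctsz in lymphocytes was highest in hashtag 1 of PFF + VH at 623.5 CPM, against 395 to 414.9 CPM, and in hashtag 3 of PFF + AZD1480 at 423.2 CPM, against 245.3 to 293.3 CPM. Grn in lymphocytes was highest in hashtag 5 of PFF + AZD1480 at 224.6 CPM, against 85.54 to 100.4 CPM.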

How the results depend on the processing

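Of 2236 values of single genes under an alternative, 2144 kept their direction and their side of the threshold, 60 lost a call, 32 gained one and 0 changed direction. Of 165 counts of members, 151 stayed within 1.5 times the count reported. In microglia (14 called with edgeR), leaving out 1 hashtag gave 9 to 14, and the counts over all genes in these fits are not given here. In lymphocytes (0 called with edgeR), 2 members were called by DESeq2, with at least 6 marker UMIs and in T and NK cells only, 3 with HTODemux centred within cells, 1 each without a filter, with MULTIseqDemux, with at least 2000 counts, with thinned cells and without the nuclear genes, and 0 to 3 when 1 hashtag was left out. In the interaction 1 member (Lipa) was called with at least 6 marker UMIs. Between PFF + VH and monomer, 2 members (Cd63 and Atp6v0c) passed 1.5-fold after TMM over the libraries. The cause of these changes was not tested. Scaling by the total and the sets without high Scrublet scores or with T and NK cells only were chosen after seeing the data. Scrublet's own threshold lay above its highest score in every library, so that it called 0 cells and leaving out called doublets gave no value. Leaving out its highest scores instead removed no lymphocyte of the hashtags tested, so it says nothing about that test.

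With the hashtag number as a replicate block (hashtags 1 to 4 of both libraries), 12 members were called in microglia (5 higher and 7 lower), 0 in border macrophages, 0 in lymphocytes and 3 in T and NK cells. Counts over all genes under the block are not given here. Among the 3 was Cst3 (-0.67, edgeR adjusted p = 4.38e-05, against 0.433 without the block and with hashtag 5 of PFF + AZD1480). Without that hashtag and with no block, Cst3 was also called (-0.82, edgeR adjusted p = 0.0206). Deviations of hashtags with the same number had correlations of -0.153 to 0.0852. In microglia, with the largest sums, they ran from -0.0269 to 0.0657 and gave no sign of pairing. Small sums in border macrophages and lymphocytes carry counting noise that can hide pairing, so the check cannot tell whether the numbers pair the samples.

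Counts of all genes called moved by more than 1.5 times in these cases. Thinning gave 2103 against 3574 in microglia, 1680 against 3034 for border macrophages against microglia, 3313 against 5163 for lymphocytes against microglia, and 2988 against 5019 for disease-associated microglia, where fewer cells and counts entered. Against 13 genes in border macrophages (6 without hashtag 1 of PFF + VH and 8 without hashtag 1 of PFF + AZD1480), 59 were called without a filter, 3 with MULTIseqDemux, 7 with at least 2000 counts, 4 with thinning and 8 with at least 6 marker UMIs. Against 12 genes in lymphocytes, DESeq2 called 31, no filter 101, HTODemux centred within cells 24, at least 2000 counts 25 and at least 6 marker UMIs 24, and 7 were called without hashtag 1 of PFF + VH and 21, 40 and 19 without hashtags 2, 3 and 5 of PFF + AZD1480. Against 77 genes in T and NK cells, no filter gave 153, MULTIseqDemux 40, at least 2000 counts 51 and thinning 18, and 47 were called without hashtag 2 of PFF + VH and 51 and 38 without hashtags 1 and 4 of PFF + AZD1480. Against 58 genes in the interaction, DESeq2 called 25, MULTIseqDemux 93 and thinning 9. Depth limits the lymphocyte and border macrophage tests, in which 16 and 6 members were too low to be tested.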
